A study of Mus musculus with 2 samples.

Results

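The genes described here encode basic helix-loop-helix (bHLH) transcription factors that can pair with, or compete with, ID proteins in the mesenchyme of the embryonic mouse ureter. They are the 3 E protein genes Tcf3, Tcf4 and Tcf12, and 7 tissue bHLH genes, namely Twist1, Twist2, Hand1, Hand2, Atoh8, Tcf21 and Msc. Array probes were assigned to them by accession, without regard to their signal. The genes themselves were chosen with earlier results of these data known. All 10 genes were found, with 13 of the 39429 gene probes of the array, and all 13 probes passed the filter on dim probes, so the 10 genes are among 21337 genes tested. Ureters came from wildtype NMRI embryos of mixed sex at the embryonic stage E12.5 and were kept for 18 h on transwell membranes. The control cultures had plain medium, and the treated cultures had medium with 10 µg/ml NOGGIN, a secreted antagonist that binds bone morphogenetic proteins (BMPs). RNA of 1 control and 1 NOGGIN culture was hybridised together on each of 2 Agilent 2-colour arrays, replicates 1 and 2, with the dyes exchanged. How many embryos went into a culture, and whether the replicates are separate litters, is not given in the labels. The p-values thus rest only on the spread between these arrays, which may be technical. That spread is taken from the gene itself and, for the larger part, from all genes together.

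E proteins are widely expressed bHLH factors that bind the E-box, a short DNA motif with the letters CANNTG, either with each other or with a tissue-restricted bHLH partner. ID proteins have the helix-loop-helix but lack the basic region that touches DNA, so a dimer of an E protein with an ID protein does not bind. Id genes are classical targets of BMP and SMAD signalling, and the ureteric mesenchyme receives BMP signals while it forms smooth muscle. TWIST and HAND factors can also pair with one another, and the choice of partner decides which sites they occupy.

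Both directions of every ratio must be kept in mind. Log2 ratios below are the NOGGIN-labelled over the control-labelled channel, as the dyes in the labels give them, and a gene called "higher" or "lower" is so in the channel labelled NOGGIN. The authors' deposited table of signed fold changes has the opposite sign: its log2 values correlated with the label-oriented ratios of the same array at r = -0.965 on each array, over 25599 probes, which are not independent replicates. The table does not itself say what is divided by what, but the sample titles name NOGGIN first and control second. Read in that order, its signs are the reverse of each "higher" and "lower" given here, as for Atoh8, with fold changes of -2.44 and -3.06. On the label orientation the ID genes, which BMP signalling is known to switch on, were higher with the BMP antagonist (Id1 1.98 ± 0.62, Id2 2.73 ± 0.87, Id3 1.45 ± 0.21 and Id4 1.94 ± 0.53; mean log2 ratio ± SD, n = 2). The direction is thus not settled. Turning it turns each "higher" into "lower" and the reverse, and leaves sizes, p-values and oppositions between genes as they are.

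The tissue bHLH genes split in direction, and none of the E proteins passed. Atoh8, Tcf21 and Hand1 were higher, Msc and Twist2 were lower, and Tcf3, Tcf4, Tcf12, Twist1 and Hand2 did not pass an adjusted p of 0.05 (limma, Benjamini-Hochberg over all genes). Of the 10 genes 3 were thus higher, against 3.95% of all genes tested, and 2 were lower, against 4.03% (7.97% in either direction). Atoh8 and Msc, 2 of 10 genes, reached 1.5-fold on each array with the same sign, against 2.9% of all genes (1.35% higher and 1.55% lower). The median size of the log2 ratio, without its sign, was 0.41 for the 10 genes and 0.10 for all genes. The median with sign was 0.085, against 0.00083 for all genes. Because the genes were chosen with earlier results of these data known, these comparisons with all genes only describe the 10 genes. They are no test of whether bHLH genes differ from other genes.

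**Figure D1:**
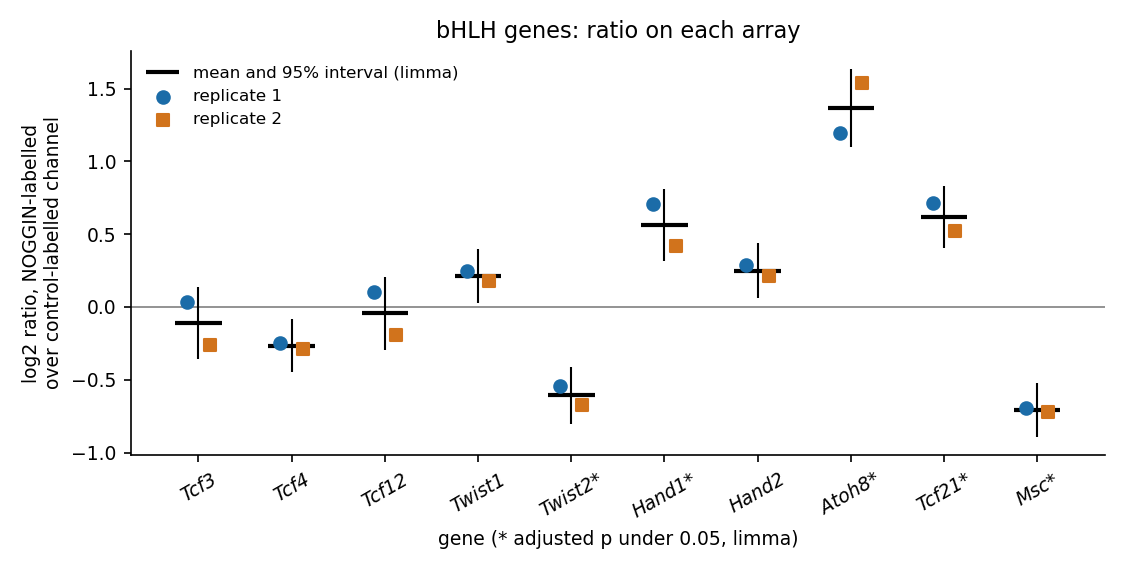
Log2 ratio of the NOGGIN-labelled over the control-labelled channel for the 10 bHLH genes, with the value on each array (blue circles, replicate 1; orange squares, replicate 2), the mean (bar) and its 95% interval from limma (line). Atoh8 stands highest at 1.37 and Msc lowest at -0.71, and for Tcf3 and Tcf12 the arrays lie on opposite sides of 0.

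Atoh8 encodes an atonal-related bHLH factor that has been described in endothelial, kidney and muscle precursor cells. Its log2 signal, scaled to be comparable between channels, was 10.48 in control and 11.67 in NOGGIN on replicate 1, and 10.14 and 11.68 on replicate 2. The 2 NOGGIN channels were nearly equal and lay above both control channels, so the conditions did not overlap. How many of all genes separate in this way was not counted, so here and below it only describes the values. The log2 ratios were 1.20 and 1.54, with a mean of 1.37 ± 0.24 (SD, n = 2), a 2.58-fold difference (adjusted p = 0.00544, limma, 95% interval 1.10 to 1.63). Only 0.455% of all genes had a larger ratio in either direction. In the authors' deposited table the signed fold change of Atoh8 is -2.44 on replicate 1 and -3.06 on replicate 2. Atoh8 is also an endothelial gene, so its values were set beside those of endothelial markers. Of 10 such markers 9 were measured, all well above background in both conditions. Of these 0 passed in limma (2 at an unadjusted p under 0.05, against 4953 of all 21337 genes). The other marker, Erg, did not pass the filter on dim probes. Their summed signal was 35900 and 39420 in the control channels and 39200 and 45520 in the NOGGIN channels, a log2 ratio of 0.13 on replicate 1 and 0.21 on replicate 2. The part of endothelial cells in the Atoh8 ratio was not tested.

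Tcf21 encodes a bHLH factor of visceral mesenchyme that is needed for kidney development, and Msc (musculin) encodes its close relative, known as a repressor of muscle genes. They went in opposite directions. Tcf21 had log2 signals of 15.27 in control and 15.99 in NOGGIN on replicate 1, and of 15.20 and 15.72 on replicate 2, so that both NOGGIN values exceeded both control values. Its log2 ratios of 0.72 and 0.52 gave a mean of 0.62 ± 0.14 (SD, n = 2), or 1.54-fold (adjusted p = 0.0189, limma). It fell short of 1.5-fold on replicate 2. Msc had log2 signals of 7.75 in control and 7.05 in NOGGIN on replicate 1, and of 7.67 and 6.95 on replicate 2, with both NOGGIN values below both control values. The ratios agreed closely between the arrays, at -0.69 and -0.72, with a mean of -0.71 ± 0.020, or 1.63-fold (adjusted p = 0.0096).

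The size for Msc depends on the background correction. Its probe is dim, with unprocessed NOGGIN-channel signals of 71.0 on replicate 1 and 172.9 on replicate 2, and on replicate 2 a share of 0.75 of its NOGGIN spots was well above background. With Agilent's processed signals the mean log2 ratio was -1.44 (adjusted p = 0.00199, limma), and with a normexp offset of 0 it was -1.04. The authors' deposited table gives fold changes of 2.49 and 2.93 for Msc and of -1.59 and -1.49 for Tcf21, again opposite to each other. For Msc the arrays lie further apart there than in the ratios above, so its small SD depends on the processing as well. Measured on the same array, the log2 ratio of Tcf21 exceeded that of Msc by 1.41 on replicate 1 and 1.24 on replicate 2 (this difference, like those between related genes below, was picked after the values were seen and was not tested).

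Markers of cells in which these factors are known were measured beside them. Of 4 renal stroma markers 3 were lower (Ntn1, Smoc2 and Foxd1 at -1.22, -1.17 and -0.80) and 0 higher. The remaining one, Meis1, was at 0.11, on the same side of 0 as Tcf21, and did not pass. The summed signal of the 4 markers was 166800 and 188900 in the control channels and 138700 and 129400 in the NOGGIN channels. Of 6 skeletal muscle markers 4 were measured, with Ttn higher at 1.11 and Acta1 lower at -1.19, while Pax3 and Ckm did not pass the filter on dim probes. Myh3 at -0.081 and Pax7 at 0.053 did not pass, and the median of the 4 genes was -0.014, so the list had no shared direction. Its summed signal was 8855 and 8157 in control and 4629 and 3667 in NOGGIN, lower as Acta1 was and unlike the median. The muscle bHLH genes Myod1 and Myog were at -0.083 and 0.003 and did not pass the test, and Myf5 and Myf6 did not pass the filter. What part these cells have in the values of Tcf21 and Msc was not tested.

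The TWIST genes, which encode closely related bHLH factors of cranial, limb and dermal mesenchyme, lay on opposite sides of 0. Twist2 had log2 signals of 13.55 in control and 13.00 in NOGGIN on replicate 1, and of 13.74 and 13.07 on replicate 2. Both NOGGIN channels lay below both control channels. The ratios of -0.54 and -0.67 gave a mean of -0.61 ± 0.091 (SD, n = 2), a 1.52-fold difference (adjusted p = 0.0166, limma). Twist1 had log2 signals of 13.25 and 13.49 on replicate 1 and of 13.16 and 13.34 on replicate 2, control first. Here too the conditions did not overlap, but the ratios were small and positive, at 0.24 and 0.18, with a mean of 0.21 ± 0.045 (adjusted p = 0.169, 95% interval 0.026 to 0.40). The log2 ratio of Twist1 exceeded that of Twist2 by 0.79 on replicate 1 and 0.85 on replicate 2, a 1.76-fold gap on average. The authors' deposited table gives fold changes of 1.45 and 1.60 for Twist2 and of -1.16 and -1.14 for Twist1.

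The HAND genes, known from heart, limb and sympathetic neuron development, were both above 0 on both arrays. Hand1 had log2 signals of 9.72 in control and 10.42 in NOGGIN on replicate 1, and of 9.33 and 9.75 on replicate 2. The NOGGIN channel of replicate 2 was only just above the control channel of replicate 1, and within each array NOGGIN was higher. The ratios were 0.71 and 0.42, with a mean of 0.56 ± 0.21 (SD, n = 2), or 1.48-fold (adjusted p = 0.0335, limma). This is the weakest of the 5 calls: in a model of the separate channels the ratio was the same and the adjusted p was 0.186. Hand2 had ratios of 0.29 and 0.21, with log2 signals of 12.92 and 13.21 on replicate 1 and 12.65 and 12.86 on replicate 2, control first. The control channel of replicate 1 thus exceeded the NOGGIN channel of replicate 2. Its mean of 0.25 ± 0.053 did not pass (adjusted p = 0.126, 95% interval 0.060 to 0.44). The ratio of Hand1 exceeded that of Hand2 by 0.42 on replicate 1 and 0.21 on replicate 2. The fold changes in the authors' deposited table are -1.71 and -1.39 for Hand1 and -1.22 and -1.14 for Hand2.

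HAND genes mark sympathetic neurons as well, and neural markers were mixed. Of 10 neural crest and autonomic neuron markers, all measured, 2 were higher (Stmn2 at 0.70 and Prph at 0.67) and 1 lower (Dbh at -0.42). The noradrenergic enzyme gene Th was at -0.37 and did not pass. Summed signals of the list were 125000 and 123000 in control and 149600 and 126000 in NOGGIN. The part of neurons in the Hand1 value was not tested.

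**Figure D2:**
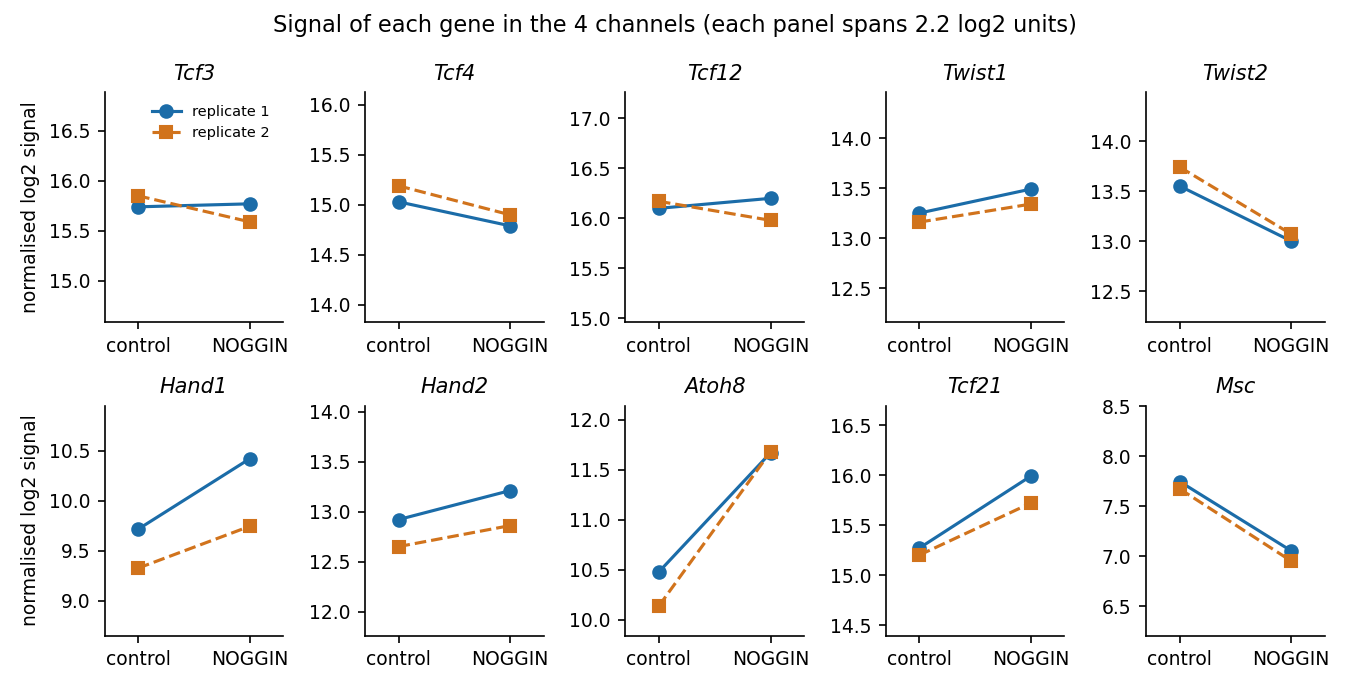
Normalised log2 signal of each bHLH gene in the control-labelled and NOGGIN-labelled channel of replicate 1 (blue circles) and replicate 2 (orange squares), each panel spanning the same range; heights are not comparable between panels, since probes differ. Lines run upward on both arrays for Atoh8, Tcf21, Hand1, Hand2 and Twist1, and downward on both for Msc, Twist2 and Tcf4. That is 8 of 10 genes with the same sign on both arrays, against 66.7% of all genes tested.

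The 3 E protein genes, which supply the common partner of these factors, were all well above background, and none passed in limma. Tcf4 came closest, with ratios of -0.24 and -0.29 and a mean of -0.26 ± 0.029 (SD, n = 2; adjusted p = 0.106, unadjusted p = 0.014). Its log2 signals were 15.03 in control and 14.79 in NOGGIN on replicate 1, and 15.19 and 14.90 on replicate 2. A second, dimmer Tcf4 probe was lower as well, at -0.62 and -0.21 (mean -0.41 ± 0.29, adjusted p = 0.101 over all probes). Tcf3, known for its role in lymphocyte development, gave 0.034 on replicate 1 and -0.26 on replicate 2 (mean -0.11 ± 0.21, adjusted p = 0.56). Its other probe gave -0.15 and -0.18. Tcf12 gave 0.11 and -0.19 (mean -0.043 ± 0.21, adjusted p = 0.846), and its other probe had the reverse order, -0.27 and 0.062. The arrays were on opposite sides of 0 for the brightest probes of Tcf3 and Tcf12, so no direction can be given for them. For the brightest probes the 95% intervals were -0.36 to 0.13 for Tcf3, -0.45 to -0.080 for Tcf4 and -0.29 to 0.21 for Tcf12. The means of Twist2 and Msc lie outside each of these. No interval was computed for the second probes, and that of Tcf4 reached -0.62 on replicate 1, as large as the Twist2 mean. A difference of that size is thus not excluded for Tcf4. An interval that leaves out 0, as for Tcf4, Twist1 and Hand2, is not adjusted for the number of genes. In the authors' deposited table the fold changes are 1.21 and 1.18 for Tcf4, 1.02 and 1.16 for Tcf3, and -1.05 and 1.11 for Tcf12.

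**Figure D3:**
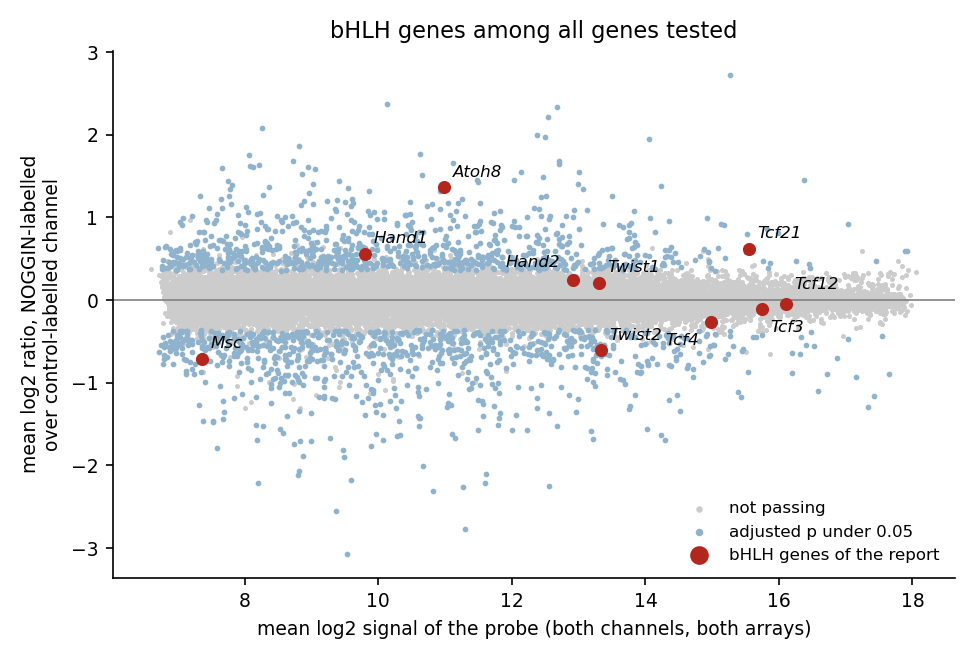
Mean log2 ratio against mean log2 signal of the 21337 genes tested (grey, not passing; light blue, adjusted p under 0.05 in limma), with the 10 bHLH genes in red. The E proteins lie at the bright end near 0, Msc lies at the dim end at a mean log2 signal of 7.36, and Atoh8 stands clear of the main cloud.

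Promoters of 3 genes that passed, picked after the values were seen, are shown because the factors act through E-boxes and BMP signals act through SMAD sites. They are the 250 bases before the start site in RefSeq's table for the mouse assembly GRCm38.p6, which held 9 promoters for 7 of the 10 genes. Capitals mark the E-box CANNTG, which reads alike on both strands, and the SMAD motif CAGAC, whose other strand reads GTCTG. The sequences are chr6:72235578-72235827 (minus strand) for Atoh8, chr10:22820144-22820393 (minus strand) for Tcf21 and chr1:91801211-91801460 (plus strand) for Twist2, each written 5′ to 3′ on the gene's strand.
Atoh8: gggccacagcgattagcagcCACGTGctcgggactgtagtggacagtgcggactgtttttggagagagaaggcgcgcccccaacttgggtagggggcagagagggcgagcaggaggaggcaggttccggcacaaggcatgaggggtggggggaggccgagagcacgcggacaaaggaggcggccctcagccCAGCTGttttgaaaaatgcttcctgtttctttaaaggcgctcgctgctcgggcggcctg
Tcf21: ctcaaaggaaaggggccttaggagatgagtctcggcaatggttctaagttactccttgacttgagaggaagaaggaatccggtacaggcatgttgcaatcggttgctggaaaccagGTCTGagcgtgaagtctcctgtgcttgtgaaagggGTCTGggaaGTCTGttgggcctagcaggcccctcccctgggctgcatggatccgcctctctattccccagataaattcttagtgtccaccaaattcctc
Twist2: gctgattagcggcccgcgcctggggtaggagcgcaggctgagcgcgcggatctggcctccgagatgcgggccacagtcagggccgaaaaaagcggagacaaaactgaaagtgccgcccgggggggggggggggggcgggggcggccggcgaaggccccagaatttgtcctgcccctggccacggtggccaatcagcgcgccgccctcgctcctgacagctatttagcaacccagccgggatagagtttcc
The Atoh8 window holds 2 E-boxes, CACGTG and CAGCTG, and 0 SMAD motifs. The Tcf21 window holds 3 SMAD motifs, each as GTCTG, and 0 E-boxes. Neither motif is in the Twist2 window. For scale, CANNTG is in 66.2% and CAGAC in 42.2% of the 32851 promoter windows of this length in the table, and in 5 and 3 of the 9 windows of these genes. CAGCTG, which is one form of CANNTG, is in 13.0% of all windows and in 2 of the 9. CATATG, another form, is in 3.46% and in 0 of the 9, and the GC-rich SMAD motif GGCGCC in 9.59% and in 1 of the 9, that of Hand2. These are letter matches only.

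Other bHLH genes gave a mixed picture. Of 38 further tissue-restricted class II bHLH genes, which also pair with E proteins, 16 were measured, and 2 were higher, 4 lower and 10 not passing, with a median of 0.00032. Scx, the scleraxis gene of tendon and connective tissue precursors, was lower at -1.57 ± 0.072 (-1.51 and -1.62). Tcf24 was higher at 1.64 ± 0.058, the largest ratio among these 16 genes. Bhlhe22, a factor of neurons, was at -0.95, Bhlha15, a factor of secretory cells, at -0.67 and Tcf15, a factor of somites, at -0.38, and all 3 passed as lower. Atoh1 passed as higher, but neither control channel was well above background. Only a bound holds there, at least 1.64-fold higher, from the mean of the NOGGIN channels against the lowest signal well above background. The other 22 genes of this list did not pass the filter on dim probes.

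bHLH repressors and bHLH-zipper factors were compared in the same way. Of 10 measured HES, HEY and BHLHE repressor genes 0 were higher and 2 lower, Bhlhe41 at -0.58 ± 0.14 and Heyl at -0.56 ± 0.13 (median -0.11). The relatives of Heyl, Hey1 at 0.20 and Hey2 at 0.24, were on the other side of 0 and did not pass. Of 22 bHLH-zipper genes, which pair mainly among themselves, 0 passed in limma (3 at an unadjusted p under 0.05, against 4953 of all 21337 genes). Their median was -0.0077. Myc came nearest at -0.39 ± 0.11 (adjusted p = 0.053).

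Of 11 cofactor genes of E proteins 2 were higher, 1 lower and 8 did not pass (median 0.0091). Runx1t1, which encodes a corepressor that binds E proteins, was lower at -1.28 ± 0.099, with -1.21 and -1.35 on the arrays. The LIM-only adaptor genes Lmo3 and Lmo4 were higher at 0.63 ± 0.028 and 0.39 ± 0.047. Of 6 measured genes of the mesenchymal SNAIL, ZEB and PRRX factors, whose SNAIL and ZEB members also bind E-boxes, 3 were higher and 0 lower, with a median of 0.71. They were Snai1 at 1.49 ± 0.10, Prrx2 at 1.10 ± 0.28 and Zeb2 at 0.96 ± 0.14. Their relatives Snai2 at 0.16, Prrx1 at 0.45 and Zeb1 at -0.22 did not pass. For comparison, the 4 ID genes were all higher, with a median of 1.96.

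**Figure D4:**
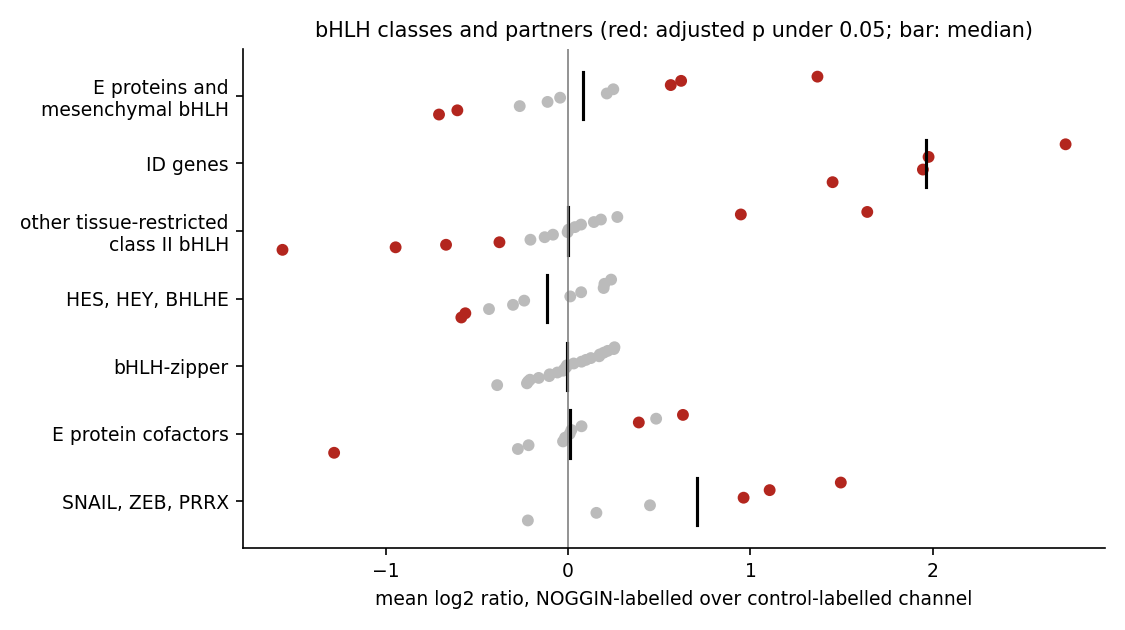
Mean log2 ratio (NOGGIN-labelled over control-labelled) of each measured gene in 7 lists, red where the adjusted p in limma is under 0.05 and grey otherwise, with the list median as a bar; vertical position within a list only spreads the points. ID genes all lie above 1, the 10 bHLH genes lie on both sides of 0, and the bHLH-zipper genes crowd around 0.

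Across the series, well above background were between 67.3% and 74.3% of gene spots per channel, and 0 were saturated. The arrays' ratios correlated at r = 0.702 across genes. All 8 ureteric mesenchyme and all 10 urothelium markers were well above background in both conditions. So were all measured markers of endothelium, neural crest and autonomic neurons, nephron progenitors, renal stroma and macrophages. Detection alone thus does not tell the ureter from other tissues. Of the mesenchyme markers 2 were higher and 3 lower, and of the urothelium markers 0 passed in limma (3 at an unadjusted p under 0.05). Over all 21337 genes tested, 4953 had an unadjusted p under 0.05 in limma. The median log2 ratio of the mesenchyme list was 0.030 (0.18 on replicate 1 and -0.12 on replicate 2), with Tbx18 higher at 1.26 and Bmp4 lower at -1.30. Its summed signal, to which bright probes add most, was 414500 and 454000 in control and 259800 and 275100 in NOGGIN, and does not stand for the list. Of 5 nephron progenitor markers 1 was lower (Meox1) and 0 higher, and of 6 macrophage markers 0 passed (3 at an unadjusted p under 0.05). Whole ureters were measured, so a change in the number of cells of a type and a change of RNA per cell cannot be told apart for any gene here.

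**Figure D5:**
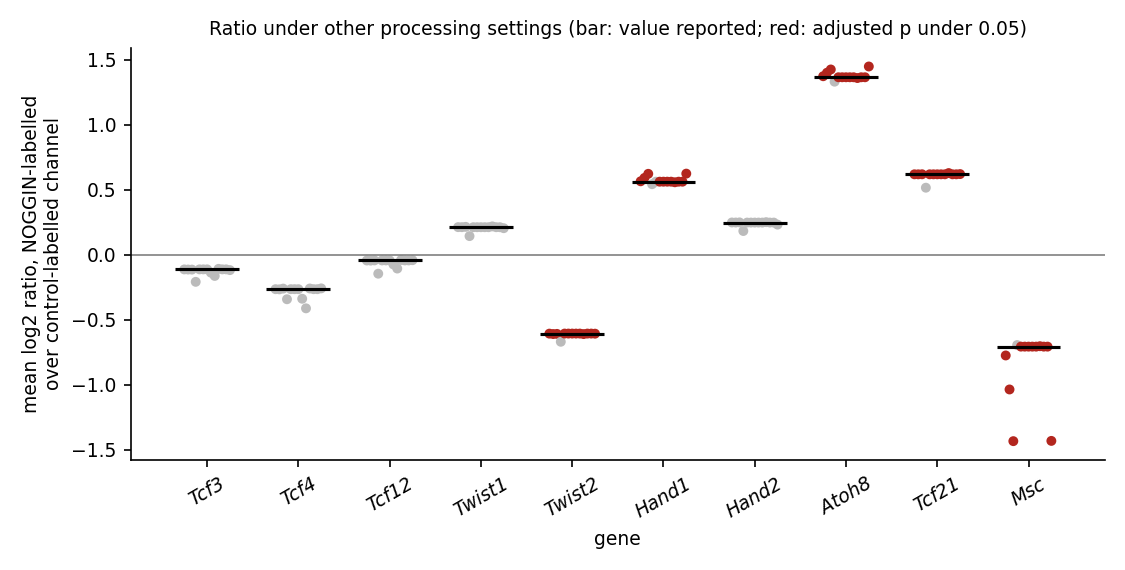
Mean log2 ratio of each bHLH gene as reported (bar) and under 13 other processing settings (points, red where the adjusted p is under 0.05, grey otherwise). The mean of each gene stays on its side of 0, also for Tcf3 and Tcf12, whose arrays differ in sign. Msc spreads from -1.44 to -0.70. The deposited table is one of the settings, with its sign turned to the labels' orientation.

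The calls were lost under one choice of normalisation. With each array only centred on its median, without loess, 0 of the 10 genes passed in limma (6 at an unadjusted p under 0.05), as did 0 of all genes (3572 at an unadjusted p under 0.05). The ratios there stayed close, at 1.33 for Atoh8 (adjusted p = 0.089), 0.52 for Tcf21 (0.187), 0.54 for Hand1 (0.176), -0.67 for Twist2 (0.101) and -0.70 for Msc (0.099). Under the other 12 settings Atoh8, Tcf21, Twist2 and Msc passed each time.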

How the data were processed

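Total RNA, 200 ng per sample, went through one amplification round and took a red or green Alexa Fluor dye, per the labels' protocols. The authors' deposited scanner files hold spot intensity on a linear scale and a log10 ratio per spot, from Agilent Feature Extraction 10.7.3.1, per the file headers and the submitters' processing notes. The log10 ratio served only as a check. The authors' deposited table holds a signed fold change (ratio) per probe, its normalisation not given in the sources used here.

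Mean signals were corrected with normexp (offset 50), normalised within arrays by loess with control, filler and outlier spots at weight 0, and averaged over the 4 spots of a probe. Channel signals, but not the tested ratios, were also scaled with Aquantile. Accessions were matched to RefSeq symbols (28328 of 39429 probes). A probe was kept if, in at least 1 condition, a share above 0.5 of its spots passed Agilent's well-above-background flag on each array (26712 probes), and a gene took its brightest probe. Ratios were tested against 0 with limma 3.58.1 in R 4.3.3 (1 residual and 4.12 prior degrees of freedom, two-sided, Benjamini-Hochberg over 21337 genes). The same test was run on simulated log2 ratios with known changes. It called 45.1% of 51 genes changed by 0.585 and 100% of 74 genes changed by 1. The simulated spread was drawn from the distribution that limma itself assumes, independently for each gene, without array errors shared between genes. Fewer genes also changed there than were called in the data. These shares thus need not carry over.

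All 10 genes are named, with up to 6 passing genes per list, and some non-passing relatives and markers beside them were chosen after their values were seen. The genes and lists were chosen with earlier results of these data known. Both arrays share a slide and scan.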

Additional observations from a re-analysis of the deposited data

How the results depend on the processing

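The mean log2 ratio of each of the 10 bHLH genes kept its sign under all 13 other settings. These varied background, normalisation, filter, probe and spot summary, moderation and source of values. The deposited table entered with its sign turned to the labels' orientation. All settings use the same 2 arrays, which differ in sign for Tcf3 and Tcf12, so these genes still have no direction. Under 11 of the 13 the same count of 5 genes passed. The separate-channel model gave 4, without Hand1. Median centring gave 0 of 10, and 0 of all genes against 1701. By the criterion of 1.5-fold on both arrays, without a model, 2 of the 10 and 618 of all genes were called. The cause of the loss under median centring was not tested. The mean log2 ratio of Hand1 ranged from 0.54 to 0.63 (adjusted p 0.0246 to 0.186), that of Atoh8 from 1.33 to 1.45 (0.00175 to 0.089). Each array alone gives a value with no test, printed for each gene above. The number of arrays, 2, limits all values, and Msc is limited by its low signal over background. The ratio within each array, tested against 0, is itself the paired analysis, and the separate-channel model (intraspot correlation 0.189) is the alternative to it.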
